A study of Homo sapiens with 4 samples.

Results

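The 40 genes described here are the machinery of the cellular response to low oxygen and the enzymes that break down glucose. They comprised 4 genes for the hypoxia-inducible factors and their regulator VHL, 14 HIF targets outside glycolysis, 5 genes for sugar and lactate transporters and PFKFB enzymes, and 17 core glycolytic enzymes. They were taken by symbol from a table of 60671 Ensembl gene IDs, and all 40 were among the 16309 genes expressed highly enough to test. The choice was made with the contrast of shMETTL14 against shNC already known, so their values in that contrast are given as a description and carry no test of their own.

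RNA sequencing was performed on SK-N-BE(2) cells, an established MYCN-amplified line of human neuroblastoma, a childhood tumor of the sympathetic nervous system. The shNC group (2 libraries) carried a control short hairpin RNA, and the shMETTL14 group (2 libraries) carried a hairpin against METTL14, a subunit of the enzyme complex that places N6-methyladenosine on RNA. The methods of the study give the lentiviral pLKO.1 vector for knockdown, with puromycin selection of infected cells. They do not state the vector of the shNC cells or whether the sequenced cells were selected in this way. Which METTL14 hairpin the sequenced cells carried, whether the libraries came from separate cultures and which oxygen level the incubator held were not given in the sources used here, so the errors below measure the spread between libraries, which may be technical.

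Hypoxia-inducible factors pair an oxygen-regulated alpha subunit (HIF1A or EPAS1) with the constant partner ARNT. When oxygen is present, prolyl hydroxylases of the EGLN family mark the alpha subunit, and VHL then directs it to degradation, so that its activity is set largely at the protein level. When the alpha subunit persists, the dimer binds short DNA elements that contain ACGTG or GCGTG and switches on genes for pH control, blood vessel growth, mitophagy and glycolysis. Glycolysis itself converts glucose to pyruvate, and lactate dehydrogenase converts pyruvate to lactate. Tumor cells often run this route even with oxygen present.

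Short promoter stretches are shown to place the elements that HIF can bind beside genes that were lower and genes that were higher. A stretch of 1 glycolytic gene that was not called, LDHA, is added. Only genes with a match upstream of a start were eligible, and the stretch with the most matches was taken. A match in every stretch was thus fixed beforehand. P4HA2, EGLN3 and PGAM1, which were higher, had no match and were passed over. Each stretch has 30 bases upstream of an annotated RefSeq start site on GRCh38.p14, written 5′ to 3′ on the strand of the gene, and capitals mark ACGTG or GCGTG and their reverse complements, with overlapping matches joined.
CA9, chr9:35673898-35673927, plus strand, lower: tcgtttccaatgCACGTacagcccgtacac
ADM, chr11:10304960-10304989, plus strand, lower: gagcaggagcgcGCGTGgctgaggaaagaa
DDIT4, chr10:72273859-72273888, plus strand, lower: ggcgcagagaagGCGTGgcctcgccgcgct
ANGPTL4, chr19:8363909-8363938, plus strand, higher: ggaaagaagagtCACGTctcccacggttcg
EGLN1, chr1:231422288-231422317, minus strand, higher: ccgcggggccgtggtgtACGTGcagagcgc
PDK1, chr2:172556060-172556089, plus strand, higher: ccctgctgcccgcCACGTccctCACGTacc
TPI1, chr12:6868075-6868104, plus strand, higher: ccgtgcgccgccgCACGTagccccagactc
PGK1, chrX:78104043-78104072, plus strand, higher: cggACGTGacaaacggaagccgCACGTctc
LDHA, chr11:18394471-18394500, plus strand, not called: actcaCACGTGggttcccgCACGTccgccg

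A RefSeq promoter window of 300 bases (250 before and 50 after the start) was found for 35 of the 40 genes. The element was present on either strand in at least 1 window of 31 of these 35 genes (88.6%), against 52.4% of all 27305 genes with a window. Per window the shares were 66.1% (41 of 62) and 48.4% of 35116. Among HIF targets with a window, the element was found for 4 of 4 genes that were lower and for 4 of 6 that were higher. NDUFA4L2 and NDRG1, which were also called lower, had no window and are not in these counts. EGLN3, P4HA2, PGAM1 and ARNT had no match in their windows, which says only that these letters were absent there. Genes with a match were thus found on both sides of the contrast.

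Depth was even, with 18925786 to 19886214 reads counted in genes per library. METTL14 itself had 753 and 754 counts in the shNC libraries and 303 and 321 in the shMETTL14 libraries, leaving 41.7% of the control level (log2 fold change -1.26, SE 0.0832, edgeR adjusted p = 3.6e-11). All 13 markers of sympathetic neuroblastoma cells were detected in every library, at a summed 7240 to 7430 CPM (counts scaled to library size). Of these markers, 3 were called higher and 9 lower, where 27.2% of all tested genes were called higher and 25.3% lower. A list of 14 markers of other cell types, of which 9 were tested, 1 called higher and 3 lower, summed to 426 CPM in both shNC libraries and to 398 and 404 CPM in the shMETTL14 libraries, most of it from LUM and PDGFRB, and their part in the results below was not tested. The leukocyte and endothelial markers of this list CD68, CD3E, PECAM1 and CDH5 had 0 to 4 counts, while the leukocyte marker PTPRC had 34 and 40 counts in the shNC libraries and 29 and 30 in the shMETTL14 libraries. The strand setting of the counting was not given, and 12 of the 40 genes share exon bases with a protein-coding neighbor. Reads of such pairs cannot always be assigned to 1 gene. In bulk RNA, fewer cells of a kind and less RNA per cell cannot be told apart.

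At an edgeR adjusted p under 0.05, shMETTL14 cells had higher levels of 21 of the 40 genes and lower levels of 9, and 10 were not called. Over all tested genes 27.2% were called higher and 25.3% lower, a division that moved with scaling: 51.8% of all called genes were higher with TMM scaling and 41.7% with upper quartile scaling. Among called genes that differed by 2-fold or more, 2 of the 40 were higher and 5 were lower, where the shares over all tested genes were 2.8% and 5.99%. The libraries of the groups did not overlap for 35 of the 40 genes, 25 higher and 10 lower, and for 75.5% of all tested genes. Since these genes were chosen with the contrast known, nothing is read from those shares.

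**Figure D1:**
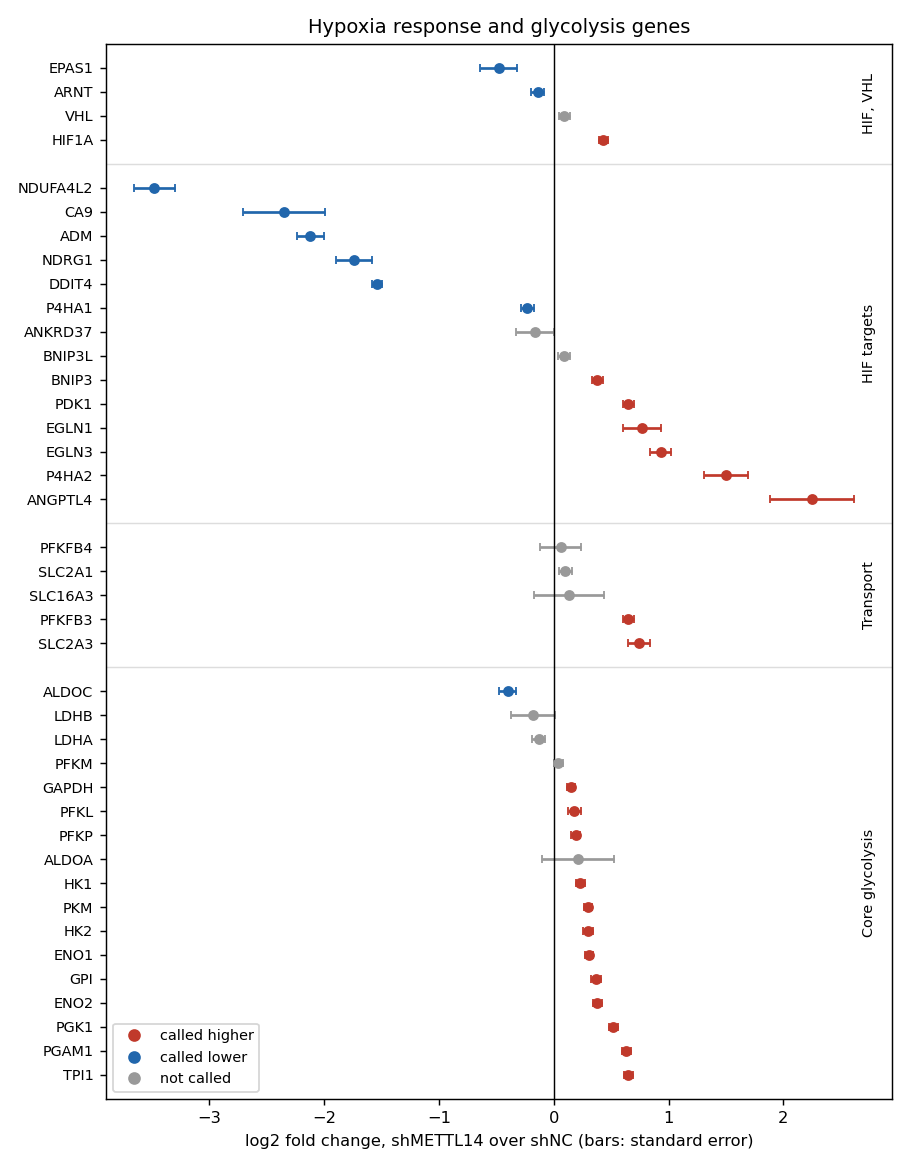
Log2 fold change of shMETTL14 over shNC for all 40 genes, grouped by role and sorted within each group; points are edgeR estimates and bars are standard errors. HIF targets spread from -3.48 (NDUFA4L2) to 2.25 (ANGPTL4), while the core glycolytic enzymes lie between -0.40 and 0.65.

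The HIF subunits did not share 1 direction. HIF1A, the widely expressed alpha subunit, had 6688 and 6581 counts in the shNC libraries and 8979 and 8727 in the shMETTL14 libraries. Both shMETTL14 libraries lay above both shNC libraries, and the log2 fold change was 0.43 (SE 0.0381). EPAS1, which encodes the HIF-2 alpha subunit associated with sympathetic and vascular tissue, was far less abundant, with 138 and 139 counts against 95 and 102 (log2 fold change -0.48, SE 0.159). Per kilobase of exon, HIF1A stood at 65.9 CPM and EPAS1 at 0.971 CPM in shNC cells. The shared partner ARNT had 1294 and 1244 counts against 1204 and 1087 (-0.14, SE 0.0569). VHL, the substrate receptor that binds hydroxylated alpha subunits, had 1680 and 1687 counts against 1803 and 1749 and was not called (0.09, SE 0.0481). The calls of EPAS1 and ARNT did not hold in DESeq2 (adjusted p = 0.173 and 0.288). Without shMETTL14 library 1, or without shNC library 2, EPAS1 was no longer called (-0.42 and -0.44), and ARNT was not called without either shNC library (-0.14 and -0.13) or without shMETTL14 library 2 (-0.07).

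Of the 14 HIF targets outside glycolysis, 6 were called higher, 6 lower and 2 were not called. Over all tested genes 27.2% were called higher and 25.3% lower. The median log2 fold change of the 14 targets was -0.04, beside -0.00 over all tested genes, and it stood between values at both extremes. It changed sign without shMETTL14 library 2 (0.0091), with a minimum of 10 counts in every library (0.067) and over the genes that share no exon with another coding gene (0.52). The single genes below describe the list better than its median.

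The lowest value belonged to NDUFA4L2, a mitochondrial protein related to a respiratory chain subunit and known to restrain respiration in hypoxia. The gene lies on the minus strand of chromosome 12 (57234903 to 57240715, GENCODE 29, GRCh38). It had 297 and 322 counts in the shNC libraries and 33 and 22 in the shMETTL14 libraries. Both shMETTL14 libraries were thus far below both shNC libraries, and 8.97% of the control level remained (log2 fold change -3.48, SE 0.179). Of all tested genes, 0.123% had a lower log2 fold change. On the opposite strand NDUFA4L2 meets SHMT2, a mitochondrial enzyme of serine metabolism, in 33 bases or 1.2% of its exon sequence. SHMT2 had 5196 and 5086 counts against 5031 and 4901 and was not called (-0.04, SE 0.0392).

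CA9, a carbonic anhydrase of the cell surface that regulates pH, and ADM, the precursor of the vasodilator peptide adrenomedullin, followed. CA9 had 61 and 53 counts against 14 and 8, which is 19.6% of the control (-2.35, SE 0.353). ADM had 424 and 399 counts against 97 and 91, or 23.0% (-2.12, SE 0.119). In both genes the groups were well separated, although the shMETTL14 counts of CA9 lay near the minimum of 10 used to filter low genes. CA9 shares 38.5% of its exon bases with ARHGEF39 on the other strand, which was itself lower (836 and 817 counts against 544 and 482, -0.68, SE 0.0762), and the part of either gene in the counts of the other was not tested. ADM shares no exon base with another gene.

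NDRG1, a stress-induced gene used as a hypoxia marker, had 227 and 210 counts in the shNC libraries and 61 and 69 in the shMETTL14 libraries. Both shMETTL14 libraries were below both shNC libraries, at a level 3.33-fold lower (-1.74, SE 0.154). DDIT4 encodes REDD1, an inhibitor of the growth kinase complex mTORC1, and was by far the most abundant target of this list. Its counts of 10452 and 10183 in the shNC libraries stood against 3532 and 3510 in the shMETTL14 libraries, so that 34.3% remained (-1.54, SE 0.0394). Per kilobase of exon its level went from 257 to 88.1 CPM. An antisense transcript, DDIT4-AS1, covers 41.2% of its exon bases but had only 27 and 26 counts against 7 and 11, and the same direction (-1.53, SE 0.435), and its part in the DDIT4 counts was not tested. The sixth lower gene, P4HA1, a catalytic subunit of collagen prolyl 4-hydroxylase, differed little: 1235 and 1304 counts against 1073 and 1083 (-0.23, SE 0.0589). P4HA1 was not called in DESeq2 (adjusted p = 0.0557), nor without shNC library 2 (-0.15).

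Other HIF targets were higher. ANGPTL4, a secreted inhibitor of lipoprotein lipase, had 10 and 11 counts in the shNC libraries and 54 and 46 in the shMETTL14 libraries (2.25, SE 0.363). P4HA2, the second collagen prolyl hydroxylase subunit of the list, had 48 and 67 counts against 176 and 147 (1.5, SE 0.189). Both shMETTL14 libraries exceeded both shNC libraries in each gene, at 475% and 282% of the control level. Both genes were rare, and ANGPTL4 in shNC cells lay at the filter minimum, so its fold rests on few reads. P4HA2 and P4HA1, paralogs with the same enzymatic role, thus had opposite directions, with P4HA1 the more abundant per kilobase of exon in both groups (21.0 and 18.0 CPM against 0.347 and 0.978).

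EGLN3 and EGLN1, prolyl hydroxylases that act on HIF alpha, are HIF targets themselves. EGLN3 had 277 and 286 counts in the shNC libraries and 521 and 543 in the shMETTL14 libraries (0.93, SE 0.0907). EGLN1 had 98 and 91 against 139 and 181 (0.77, SE 0.166). Neither gene had overlapping libraries between the groups, and their levels were 190% and 170% of the control. The annotated span of EGLN3 contains SPTSSA on the same strand, with 0 shared exon bases. SPTSSA was also higher (1107 and 1103 counts against 1894 and 1728, 0.72, SE 0.0537), and its part in the EGLN3 counts was not tested.

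PDK1, the kinase that inactivates pyruvate dehydrogenase and so keeps pyruvate out of the citric acid cycle, had 1242 and 1201 counts against 1872 and 1949 (0.65, SE 0.0508). BNIP3, a receptor on the outer mitochondrial membrane for mitophagy, had 1969 and 2055 against 2635 and 2564 (0.38, SE 0.0475). Its paralog BNIP3L had 1297 and 1332 against 1366 and 1406 and was not called (0.09, SE 0.0541). ANKRD37, an ankyrin repeat protein, was not called either: its counts of 129 and 111 overlapped those of 116 and 98 (-0.16, SE 0.165). ANKRD37 shares 35.2% of its exon bases with UFSP2 on the opposite strand.

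**Figure D2:**
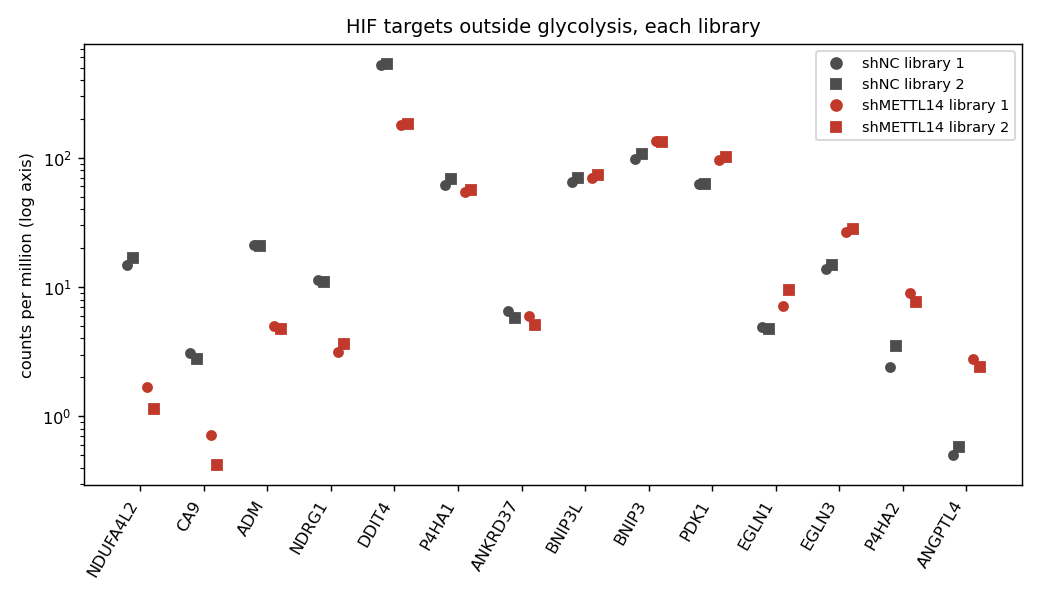
CPM, on a log axis, of the 14 HIF targets outside glycolysis in each of the 4 libraries, ordered by fold change. The 5 genes at the left (NDUFA4L2 to DDIT4) have group means at 8.97% to 34.3% of the shNC mean, and P4HA2 and ANGPTL4 at the right have group means at 282% and 475%.

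The abundance of DDIT4 dominated the summed reads of the HIF targets. Together the 14 genes took 0.0906% and 0.0931% of gene counts in the shNC libraries and 0.0588% and 0.0598% in the shMETTL14 libraries, a ratio of 0.645. With DDIT4 left out, the sum was 0.0373% and 0.0393% against 0.041% and 0.0419%, a ratio of 1.08. The direction of the summed HIF targets was therefore that of 1 gene.

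Genes that bring glucose in, carry lactate out or set the rate of the pathway formed the next group. In it 2 of 5 were called higher and none lower, where 27.2% of all tested genes were called higher and 25.3% lower. SLC2A3, the high-affinity neuronal glucose transporter GLUT3, had 295 and 342 counts in the shNC libraries and 551 and 506 in the shMETTL14 libraries (0.74, SE 0.096). SLC2A1 (GLUT1) had 1066 and 986 against 1097 and 1086, with no overlap but a difference too small to be called (0.10, SE 0.058). Per exon length, SLC2A3 made up 17.5% and 21.0% of the sum of these 2 transporters in the shNC libraries and 27.8% and 26.3% in the shMETTL14 libraries. PFKFB3, which makes the phosphofructokinase activator fructose 2,6-bisphosphate, had 1416 and 1325 counts against 2133 and 2147 (0.65, SE 0.0478). Its relative PFKFB4 had 88 and 107 against 102 and 100 (0.06, SE 0.177, and -0.0086 with upper quartile scaling). The lactate exporter SLC16A3 (MCT4) was near the detection limit with 30 and 48 counts against 35 and 50 (0.13, SE 0.305), and its sign turned without shNC library 1 (-0.20) or without shMETTL14 library 2 (-0.15).

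Of the 17 core glycolytic enzymes, 12 were called higher, 1 lower and 4 were not called, where 27.2% of all tested genes were called higher and 25.3% lower with TMM scaling. As the enzymes were chosen with this contrast known, the counts are a description. Their median log2 fold change was 0.23, none reached 2-fold, and the values ran from -0.40 to 0.65. The size of this median depended on scaling, at 0.17 with upper quartile scaling and 0.19 with library size alone, and stayed above 0 in both. It was 0.30 without ALDOA and LDHB, whose counts are uncertain as given below.

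The hexokinases trap glucose in the cell as glucose 6-phosphate. HK1 had 3362 and 3183 counts against 3856 and 3792 (0.23, SE 0.0407), and HK2 had 2690 and 2532 against 3272 and 3099 (0.30, SE 0.0431). GPI, which isomerizes glucose 6-phosphate to fructose 6-phosphate, had 2613 and 2541 against 3318 and 3306 (0.37, SE 0.0421). For all 3 genes both shMETTL14 libraries lay above both shNC libraries. Per exon length, HK2 supplied 45.3% ± 0.102 of the hexokinase signal of these 2 genes in shNC and 46.4% ± 0.661 in shMETTL14 cells (SD, n = 2 each).

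Phosphofructokinase commits the sugar to glycolysis and is built from 3 kinds of subunit. PFKP, the platelet type, had 2997 and 2891 counts against 3333 and 3349 (0.19, SE 0.0417). PFKL, the liver type, had 1113 and 1076 against 1203 and 1258 (0.18, SE 0.0566), and PFKM, the muscle type, had 3416 and 3276 against 3477 and 3376 and was not called (0.04, SE 0.041). The call of PFKL was lost in DESeq2 (adjusted p = 0.11), with upper quartile scaling (adjusted p = 0.106), with library size alone (adjusted p = 0.0524) and without shMETTL14 library 2 (adjusted p = 0.141), and the sign of PFKM turned with upper quartile scaling (-0.024) and with library size alone (-0.0014). Per exon length, the share of PFKM in the family was 38.5% ± 0.104 (SD, n = 2) in shNC and 36.1% ± 0.667 (SD, n = 2) in shMETTL14 cells, while that of PFKP was 51.2% ± 0.0731 and 53.3% ± 0.306 and that of PFKL 10.3% ± 0.0308 and 10.6% ± 0.361 (SD, n = 2 each). These shares moved by little, although the libraries of the groups did not overlap.

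Aldolase splits the sugar into 2 triose phosphates. ALDOC, the brain isoform, was the 1 core enzyme called lower with TMM scaling and the default edgeR filter. It had 741 and 731 counts against 570 and 539 (-0.40, SE 0.0741). ALDOA, the ubiquitous isoform and usually an abundant mRNA, was counted at only 27 and 34 against 37 and 33 reads (0.21, SE 0.314). In GENCODE 29, 93.8% of the ALDOA coding bases also belong to a second protein-coding gene on the same strand, AC093512.2 (30 and 51 counts against 57 and 54, 0.46, SE 0.278), and reads that fit both genes cannot be assigned. The ALDOA count is therefore uncertain, and the ALDOC share of aldolase, 97.0% in shNC and 95.5% in shMETTL14 cells per exon length, carries the same doubt.

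The middle of the pathway held the enzymes with the highest ratios. TPI1, which interconverts the triose phosphates, had 14008 and 14384 counts in the shNC libraries and 22427 and 21808 in the shMETTL14 libraries (0.65, SE 0.0385). PGAM1, a phosphoglycerate mutase, had 4476 and 4312 against 6925 and 6568 (0.63, SE 0.0397). PGK1, which makes the first ATP of the pathway, had 8228 and 8077 against 11653 and 11611 (0.52, SE 0.0374). These 3 transcripts reached 157%, 155% and 144% of the control level, with the replicates of each group close together.

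GAPDH, between TPI1 and PGK1 in the pathway, differed least among the called enzymes: 87173 and 88968 counts against 98628 and 96171 (0.15, SE 0.0348), or 111% of the control. It was also the most abundant of the 40 genes, at 1513 CPM per kilobase of exon in shNC cells. GAPDH is often used as a reference transcript, and with TMM scaling every other core enzyme called higher had a larger fold change. As a share of all core glycolytic counts it took 43.2% and 43.9% in the shNC libraries and 40.1% and 39.9% in the shMETTL14 libraries, while TPI1 went from 7.03% ± 0.11 to 9.09% ± 0.0416 (SD, n = 2 each).

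Enolase and pyruvate kinase close the route to pyruvate. ENO1 had 40900 and 41461 counts against 50973 and 50715 (0.31, SE 0.0357), and ENO2, the neuronal enolase used clinically as a neuroblastoma marker, had 2543 and 2514 against 3278 and 3244 (0.38, SE 0.0426). ENO2 made up 7.04% ± 0.116 of enolase per exon length in shNC and 7.33% ± 0.0257 in shMETTL14 cells (SD, n = 2 each). PKM, pyruvate kinase, had 25879 and 25183 against 31827 and 30743 (0.30, SE 0.0349). Each of these 3 genes had both shMETTL14 libraries above both shNC libraries.

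Neither lactate dehydrogenase gene was called with TMM scaling and the default edgeR filter. LDHA, the subunit that is a classical HIF target, had 1301 and 1206 counts against 1181 and 1100. Both shMETTL14 libraries lay below both shNC libraries, but the difference was not called (-0.13, SE 0.0559). With upper quartile scaling, library size alone or a minimum of 10 counts in every library, LDHA was called lower (-0.19, -0.17 and -0.14). LDHB had only 117 and 80 counts against 81 and 92 (-0.18, SE 0.194), its libraries overlapped, and its sign turned without shNC library 1 (0.089). As 93.5% of the LDHB coding bases also belong to AC010197.2 on the same strand, its count is uncertain, and the LDHA share of 86.0% ± 2.57 in shNC and 86.3% ± 1.65 in shMETTL14 cells (SD, n = 2 each) carries the same doubt.

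**Figure D3:**
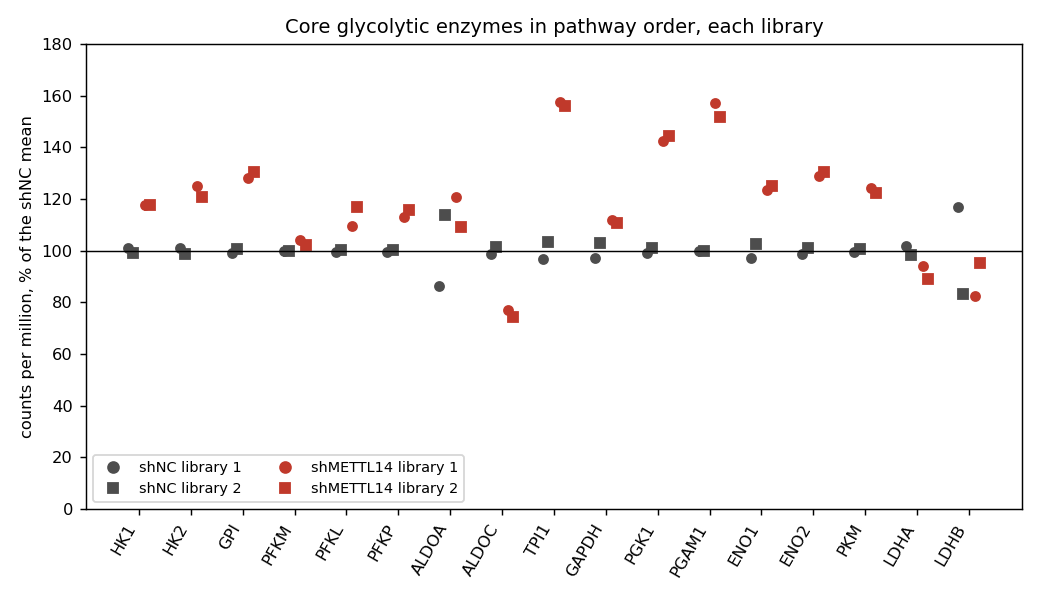
CPM of the 17 core glycolytic enzymes in each of the 4 libraries, as a percentage of the mean of the shNC libraries, in the order of the pathway; the black line marks 100%. TPI1, PGK1 and PGAM1 stand at 144% to 157%, ALDOC at 75.8% and LDHA at 91.6% of the shNC mean.

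In sum the 17 core enzymes took 1.03% and 1.07% of gene counts in the shNC libraries and 1.24% and 1.23% in the shMETTL14 libraries, a ratio of 1.18. Without GAPDH the ratio was 1.25. Side by side, 5 of the 14 HIF targets outside glycolysis and 0 of the 17 enzymes were called lower by at least 2-fold (5.99% of all tested genes), and 2 and 0 were called higher by at least 2-fold (2.8%). The difference between the lists was not tested. Fitted values of the HIF targets lay on both sides of 0 in equal number, and 14 of the 17 enzymes had a fitted value above 0, although PFKM among them falls below 0 with upper quartile scaling or library size alone. Pairs of genes that are both known HIF targets, such as PGK1 and CA9 or PDK1 and NDUFA4L2, had opposite directions.

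Of the 40 genes, 7 lie on chromosome 12 (ENO2, GAPDH, LDHB, PFKM, TPI1, NDUFA4L2 and SLC2A3) and 7 on chromosome 10 (HK1, PFKP, PGAM1, BNIP3, DDIT4, P4HA1 and PFKFB3). Neither set had 1 direction. TPI1 (0.65) and NDUFA4L2 (-3.48) share chromosome 12, and PGAM1 (0.63) and DDIT4 (-1.54) share chromosome 10.

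Further genes of the same pathways were counted from lists drawn up by function. Beside the counts of each of these lists stand the shares over all tested genes, 27.2% called higher and 25.3% lower. As the lists were chosen with earlier results known, their counts are a description. Of 12 other parts of the oxygen-sensing pathway, 7 were called higher, 1 lower and 4 were not called (median log2 fold change 0.19). ELOC, ELOB and RBX1, which with a cullin and VHL form the ubiquitin ligase for HIF alpha, all rose, with 0.61 (SE 0.0562, edgeR adjusted p = 7.0e-09), 0.27 (SE 0.0591, adjusted p = 5.6e-04) and 0.41 (SE 0.064, adjusted p = 1.5e-05). The cullin CUL2, singled out after its value was seen, had 0.13 (SE 0.0536, adjusted p = 0.0404). CUL2 lost its call with upper quartile scaling, library size alone, both other filters and DESeq2. It was also not called without shNC library 2 (0.11) or without shMETTL14 library 1 (0.16) or 2 (0.12). CITED2, which competes with HIF for the coactivators CREBBP and EP300, rose by 0.63 (SE 0.0919, adjusted p = 5.3e-06). HIF3A, a further alpha subunit, fell from 68 and 51 counts to 21 and 9 (-1.97, SE 0.349, adjusted p = 6.1e-05), a value that came to -2.68 without shMETTL14 library 1 and to -1.49 without shMETTL14 library 2.

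Among 35 further HIF targets, 34 were tested, of which 12 were called higher, 9 lower and 13 not, with a median of 0.00. The largest increase was in LOX, the collagen cross-linking enzyme lysyl oxidase, from 205 and 202 to 521 and 481 counts (1.31, SE 0.097, edgeR adjusted p = 2.6e-10). FAM162A, STC1 and the transferrin receptor TFRC rose by 0.88, 0.80 and 0.79. Above the expression limit for naming (log2 CPM of 1 on average), the largest decrease was in BHLHE41, a transcriptional repressor, from 105 and 85 to 47 and 20 counts (-1.49, SE 0.276, adjusted p = 1.0e-04), with -2.21 and -1.01 when shMETTL14 library 1 or 2 was left out. CXCR4, a chemokine receptor under that limit, had 24 and 11 counts against 2 and 9 (-1.63, SE 0.601, adjusted p = 0.0269), and its call was lost in DESeq2 (adjusted p = 0.193) and without shNC library 1 (-1.01) or shMETTL14 library 1 (-0.92). Its value was -3.04 without shMETTL14 library 2. PPP1R3C, which promotes glycogen storage, fell by 1.19, ZNF395 by 0.88 and STC2 by 0.80 on the log2 scale. The stanniocalcin paralogs STC1 and STC2 therefore had opposite directions, like the pair P4HA1 and P4HA2. VEGFA, the vascular growth factor, had 2659 and 2568 counts against 2254 and 2086 (-0.26, SE 0.0455, adjusted p = 5.4e-05).

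Of 23 isoforms and transporters outside the core set, 8 were too low to test. Of the 15 tested, 3 were called higher and 5 lower, with a median of -0.41. PGAM2, the muscle phosphoglycerate mutase, fell from 82 and 91 counts to 20 and 29 (-1.81, SE 0.265, edgeR adjusted p = 5.9e-06), opposite to PGAM1. PFKFB2 fell from 97 and 111 to 51 and 61 (-0.88, SE 0.202, adjusted p = 8.8e-04), opposite to PFKFB3. The sugar transporters SLC2A10 and SLC2A12 fell by 1.89 and 0.93 on the log2 scale, and SLC2A6, SLC2A8 and BPGM rose by 0.55, 0.44 and 0.46.

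At the entry of pyruvate into mitochondria, 5 of 13 genes were called higher, 5 lower and 3 not (median -0.01). The pyruvate dehydrogenase kinases did not move as 1 group. PDK1 was higher as given above, and PDK2 fell from 678 and 657 to 488 and 460 counts (-0.48, SE 0.0773, edgeR adjusted p = 1.7e-05). PDK3, singled out after its value was seen, had -0.13 (SE 0.0472, edgeR adjusted p = 0.028). The PDK3 call was lost in DESeq2, with no filter, and without shNC library 1 (-0.12) or shMETTL14 library 1 (-0.07). The opposing phosphatases differed too, with PDP1 at 0.52 (SE 0.0798, adjusted p = 1.2e-05) and PDP2 at -0.65 (SE 0.0791, adjusted p = 4.3e-07). MPC1, a subunit of the mitochondrial pyruvate carrier, rose by 0.48, and the dehydrogenase subunits PDHB and DLAT rose by 0.27 and 0.19. DLD, the subunit shared with other dehydrogenases, fell by 0.49, and the phosphatase regulator PDPR by 0.20, on the log2 scale.

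In the side branches, 16 of 19 genes were tested, 6 were called higher, 4 lower and 6 not (median 0.04). TIGAR, a phosphatase that removes fructose 2,6-bisphosphate and diverts sugar from glycolysis, rose from 23 and 26 to 92 and 71 counts (1.74, SE 0.266, edgeR adjusted p = 1.0e-05). PGM1, a phosphoglucomutase, and RPIA, a ribose phosphate isomerase, rose by 0.70 and 0.58. PGLS, a lactonase of the pentose phosphate pathway, fell by 0.40, and PCK2, PC and TKT fell by 0.39, 0.18 and 0.18 on the log2 scale. PC lost its call in DESeq2 (adjusted p = 0.185) and with no filter. It was also not called without shNC library 1 (-0.12) or without shMETTL14 library 1 (-0.18) or 2 (-0.17).

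**Figure D4:**
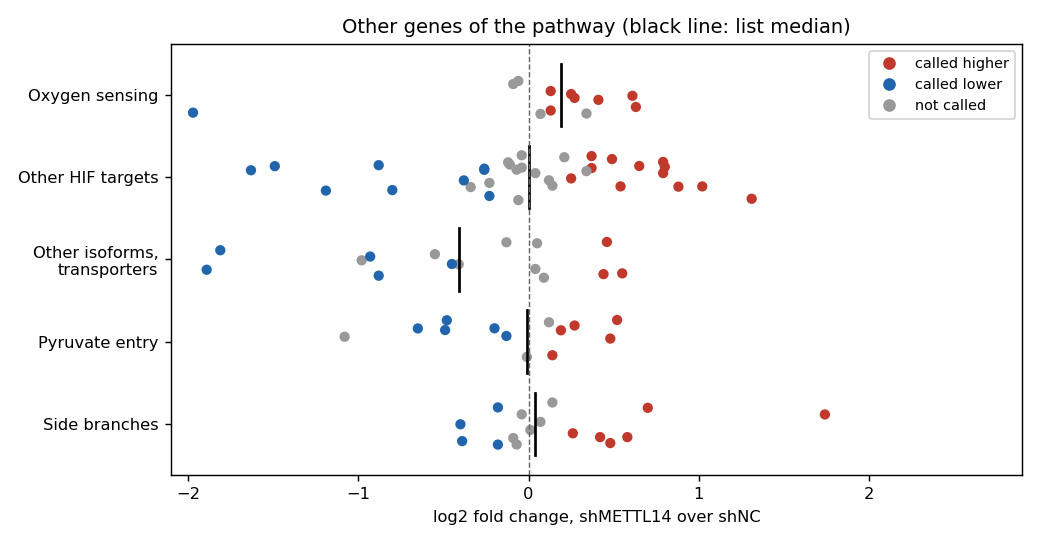
Log2 fold change of shMETTL14 over shNC for tested genes of 5 further lists, 1 point per gene (vertical scatter only separates points), with black lines at list medians and a dashed line at 0. HIF3A (-1.97) and TIGAR (1.74) stand apart from the rest of their lists, and the further HIF targets lie on both sides of 0 around a median of 0.00.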

How the data were processed

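The values are unnormalized counts of reads in each Ensembl gene, as the authors deposited them in 1 table. According to the submitters' processing notes, HISAT2 2.1.0, StringTie 1.3.6, HTSeq 0.13.5 and edgeR were used with GRCh38 (hg38); how they were combined and the strand setting were not given in the sources used here. Libraries were read as 150-base pairs. Of the 60671 IDs, 58453 were found in GENCODE 29, the source of coordinates, exon lengths and overlaps, which need not be the annotation the authors counted on. Lines that named no gene (19.1% to 19.86% of counts) were left out.

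Counts were tested with edgeR 4.0.16 in R 4.3.3 (quasi-likelihood F-test, TMM scaling, filterByExpr with a minimum count of 10 and total of 15, group as the only term). Benjamini-Hochberg adjustment covered the 16309 tested genes, and genes with an adjusted p under 0.05 are described as called. Standard errors were derived from the F statistic. The procedure was also run on simulated counts with the same dispersion for every gene and few changed genes. That run checks the code and cannot check the calls in these libraries. The biological coefficient of variation was 3.45%. With 2 libraries in each group, the smallest two-sided p of an exact permutation test is 0.333, so every call rests on the variance that edgeR shares across genes. The mean chi-square per gene was 2.66 and 2.21 within groups, above the value near 1 of sampling noise. Such values cannot tell separate cultures from separate preparations of 1 culture. The libraries were fitted as replicates, and every call depends on that choice. CPM values are relative to TMM-scaled library size, and levels per exon length divide them by the kilobases of merged exons. Shares of isoenzymes were computed from counts per exon base in each library. Promoter windows came from RefSeq (GRCh38.p14).

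The members and the lists of other pathway genes were chosen with earlier results of these data known. All members, METTL14, markers and overlapping genes could be named. From each other list, the 4 largest increases and 4 largest decreases were named among called genes with libraries that did not overlap and a mean log2 CPM of at least 1; 1 gene so selected is not reported here. VEGFA, CUL2, PDK3 and CXCR4 were added after their values were seen. Alternatives were other scalings (RLE, upper quartile, library size), other filters, DESeq2 1.42.0, a replicate block, leaving out each library, a 2-fold limit, a restriction on overlapping genes and another transcript length. Same-numbered libraries deviated from their group means with a Pearson correlation of 0.0698, which cannot decide whether they were paired. The labels state no pairing.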

Additional observations from a re-analysis of the deposited data

How the results depend on the processing

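Of 439 repeated values for the 40 genes, 415 kept their direction and side of the threshold, 14 lost a call (EPAS1, ARNT, P4HA1 and PFKL), 3 gained one (LDHA) and 7 changed sign (SLC16A3, PFKFB4, PFKM and LDHB, none of them called). For the named genes of other lists, 418 values kept both and 20 lost a call (CUL2, PDK3, PC and CXCR4). The counts of 21 higher and 9 lower genes ranged from 20 to 21 and from 6 to 10 over other scalings, filters, DESeq2 and omitted libraries. Requiring at least 2-fold left 2 higher and 5 lower genes, 2 and 3 of the other HIF targets, and 1 and 2 of the other glycolysis, pyruvate and side branch genes. With a replicate block, the counts were again 21 and 9 and METTL14 stayed at -1.26. As the labels do not state that the numbers pair the libraries, the block is not read further. Where 1 library was omitted, the remaining library of its group was assumed to vary like those of the other group. DESeq2 was fitted without the edgeR filter to 31490 genes and called 5546. With the filter edgeR called 8561 of 16309 genes, and without a filter it called 7996 of 31490. Calls lost in DESeq2 therefore differ in both filter and model.

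The median of the HIF targets (-0.04) moved to -0.10 under upper quartile scaling and to -0.08 under library size alone. A minimum of 10 counts in each library, under which fewer genes were tested and CA9 dropped out, gave 0.067. It was 0.52 over genes sharing no exon with another coding gene, where NDUFA4L2, CA9, ANKRD37 and BNIP3L were left out by construction, and -0.041 to 0.0091 with 1 library omitted. The median of the core enzymes (0.23) came to 0.17 (upper quartile scaling), 0.19 (library size alone), 0.24 to 0.29 with 1 library omitted, and 0.30 without ALDOA and LDHB, an alternative chosen after seeing the data. With 1 library omitted, SLC16A3 ranged from -0.20 to 0.54, PFKFB4 from -0.11 to 0.24 and LDHB from -0.39 to 0.089. With upper quartile scaling PFKFB4 was -0.0086 and PFKM -0.024, and PFKM was -0.0014 with library size alone. Over all tested genes, the median shift of the log2 fold change from TMM scaling was -0.068 with upper quartile scaling. It was -0.045 with library size alone.

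With the length of the longest transcript in place of merged exons, shares in shNC and shMETTL14 cells were 89.1% and 89.3% for LDHA, 35.6% and 36.6% for HK2, 42.9% and 40.4% for PFKM, 8.36% and 8.65% for PFKL, 48.8% and 50.9% for PFKP and 5.24% and 5.46% for ENO2. ALDOC was 95.3% and SLC2A3 28.7% in shMETTL14 cells. The order of the groups was the same with both lengths. Depth limits CA9, ANGPTL4, SLC16A3, PFKFB4, ALDOA and LDHB, each with at most 117 counts in any library.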
